A study of Mus musculus with 12 samples.

Results

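Eph receptors and ephrins were followed through the mouse cerebral hemisphere at E16.5, late in embryonic development. The family members were taken by platform gene symbol: every probe set named Epha3, Epha4, Epha5, Epha7, Ephb2, Efna2, Efna5, Efnb1, Efnb2 or Efnb3. The platform table used here holds 13 probe sets for 9 of these 10 symbols (4 receptors and 5 ephrins) out of 8251 genes with a symbol of their own, and Ephb2 was not analysed here. The series divides the hemisphere into ventral, medial, dorsal, rostral and occipital pieces and also profiles the hemisphere whole. Each of these 6 groups has 2 arrays, so there are 12 in all. By the labels the tissue is E16.5 mouse cortex hybridised to Affymetrix mouse expression arrays, the RNA being poly(A)+ by the protocol and total RNA by the molecule field, and the experiment was done 2 times from independent dissections. No genotype or treatment is given, and how many embryos went into a dissection is not given in the sources used here. The protocol text lists a lateral piece where the sample titles name a rostral one, and the titles were followed. By their titles, the groups compared therefore differ only in position in the hemisphere.

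Eph receptors are the largest family of receptor tyrosine kinases, and their ligands, the ephrins, are tethered to the membrane of the neighbouring cell. A-type ephrins hang on a lipid anchor and B-type ephrins cross the membrane. Both partners can signal on contact, which often makes axons and cells withdraw. EphA receptors mostly bind A-type ephrins, but EphA4 also binds B-type ephrins. In the developing forebrain the family is known for guiding thalamic and cortical axons, for keeping cell populations apart and for acting on progenitors of the ventricular zone.

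The level reported is the average difference, the mean signal of perfect-match probes minus that of mismatch probes, in linear units. Before log2 was taken, any value under 693.5 was raised to that number, called the floor here and computed as the root mean square of the negative values, and a probe set was tested if it exceeded 2 floors (1387) on at least 2 arrays. Of 12488 probe sets, 5832 were tested, among them 10 of the 13 family probe sets, which cover 8 genes. The p-values are from limma and are adjusted by Benjamini and Hochberg over all 5832, with a threshold of 0.05. Standard errors (SE) belong to log2 differences and standard deviations (SD) to average differences. In bulk tissue, fewer cells of a type and less RNA per cell cannot be told apart.

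The rostral and occipital labels are in doubt. Rostral replicate 2 and occipital replicate 1 were each other's closest array of another group (r = 0.963 across probe sets), whereas each of the other 10 arrays was closest to one that shared its replicate number. Nr2f1, an areal transcription factor known for higher expression caudally, had 19403 and 2614 in rostral replicates 1 and 2, against 3359 and 10243 in occipital replicates 1 and 2. The 2 rostral arrays thus lay on either side of both occipital arrays. Whether these 4 arrays carry the right titles could not be settled from the labels, so each call of a family member is also given with them left out. Tbr1, a transcription factor of deep-layer neurons, had between 13630 and 24036 over the arrays. It was not low in the ventral piece, where it read 20333 and 21076, against a mean of 18371 on the other 8 regional arrays. Of 9 genes of pallial identity and projection neurons on the array, 0 were at the floor throughout. In the ventral piece, however, Eomes read 231 and 240 and Neurog2 155 and 483, all under the floor. By limma 6 of these 9 genes were lower there, where 9.79% of all tested probe sets passed in either direction.

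A few genes of the family differed in the ventral or the medial piece. The receptor gene Epha7 and the ligand gene Efnb3 peaked in the ventral piece and were at their lowest in the medial one, while the ligand gene Efnb1 was lowest in the ventral piece. In the ventral piece 3 of the 10 tested probe sets passed against the other 4 regions, with Epha7 and Efnb3 higher and Efnb1 lower, and 9.79% of all tested probe sets passed there. In the medial piece 2 of 10 passed, Epha7 and Efnb3, both lower, against a background of 1.27%. The test over all 5 regions passed the same 2 probe sets, Epha7 and Efnb3, with 3.26% of all tested probe sets passing (limma adjusted p = 0.00453 and 0.0093). Without ventral replicate 1 or 2 neither passed over all regions, the adjusted p being 0.0617 and 0.0626 for Epha7 and 0.0825 and 0.0728 for Efnb3. With the 4 rostral and occipital arrays left out both passed (limma adjusted p = 0.00591 for Epha7 and 0.0121 for Efnb3). Epha7 entered the tests only through its ventral arrays, so these shares are no measure of the family as a whole.

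**Figure D1:**
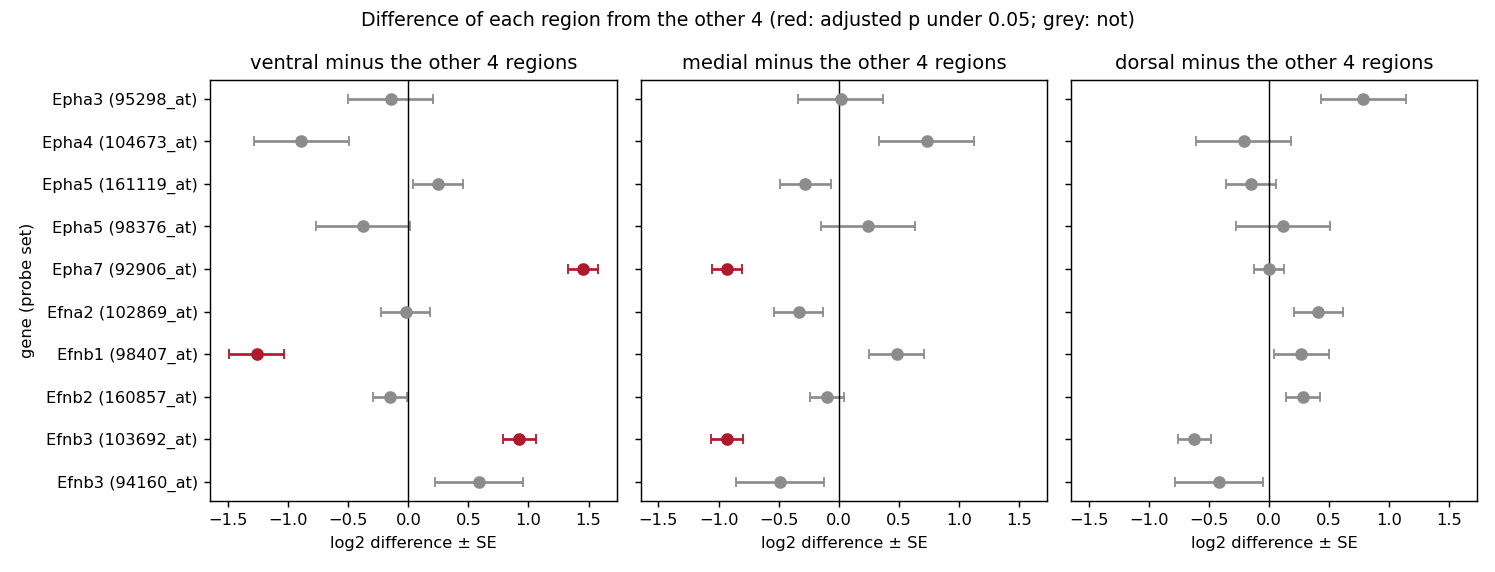
Log2 difference of the ventral, medial and dorsal piece from the unweighted mean of the other 4 regions (x axis, bars are SE) for the 10 tested probe sets (y axis). Red points have an adjusted p under 0.05: Epha7 and Efnb3 to the right and Efnb1 to the left in the ventral panel, Epha7 and Efnb3 to the left in the medial panel, and none in the dorsal panel.

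Epha7 encodes an EphA receptor of the developing cortex and striatum that is known to occur in full-length and truncated forms. Its probe set 92906_at read 2541 and 2663 in the ventral piece, against 472 and 556 in the medial, 1237 and 1083 in the dorsal, 1031 and 922 in the rostral and 985 and 1078 in the occipital piece. The whole hemisphere gave 1128 and 1290. Both ventral arrays lay above every other array, both medial arrays lay below every other array and under the floor, and the dorsal, rostral, occipital and hemisphere arrays lay close together between them.

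The ventral mean was 2602 ± 86.3 (SD, n = 2) against 921 ± 268 (SD, n = 8) in the other 4 regions. This is a 2.74-fold higher level on the floored scale (log2 1.46 ± 0.12 SE, limma adjusted p = 0.000624). Epha7 was the family's largest difference, and it was 1.42 to 1.49 in log2 whichever single array was left out. These fits kept the filter of all 12 arrays, which Epha7 passed only through its 2 ventral arrays. They are therefore no independent check of the call. The difference was 1.54 in log2 with the 4 rostral and occipital arrays left out (limma adjusted p = 0.00307), and 1.46 with no filter on low values (adjusted p = 0.00101). The floor bears on the size, since 2 of the 8 other arrays were at it.

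In the medial piece Epha7 averaged 514 ± 59.0 (SD, n = 2) against 1443 ± 722 (SD, n = 8) in the other 4 regions, at least 1.90-fold lower (log2 -0.93 ± 0.12 SE, limma adjusted p = 0.0186). With the 4 rostral and occipital arrays left out the difference was -1.32 (limma adjusted p = 0.0146). With double the floor it was -0.23 (limma adjusted p = 0.225), every array outside the ventral piece then lying at the floor. The call was also lost without medial replicate 1 (adjusted p = 0.179) or 2 (0.233), without dorsal replicate 2 (0.0561), without ventral replicate 1 (0.0586) or 2 (0.0541), and with trend and robust variances (0.0670). The second Epha7 probe set, 92905_at ranged from 29.7 to 283 and was under the floor on all 12 arrays. The regional pattern of Epha7 therefore rests on 1 probe set.

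The letters upstream of Epha7 and Efnb1 are shown because these 2 members had the largest ventral differences that passed, in opposite directions. The 250 bases before the start site are given 5′ to 3′ from the RefSeq promoter table of build GRCm38.p6, on the plus strand, for Epha7 at chr4:28812881-28813130 and for Efnb1 at chrX:99135811-99136060. Capitals mark matches on either strand to the searched motifs: the E-box CANNTG, the GC box GGGCGG, the CCAAT box, the TATA box TATAAA and the homeodomain core TAATTA.
Epha7: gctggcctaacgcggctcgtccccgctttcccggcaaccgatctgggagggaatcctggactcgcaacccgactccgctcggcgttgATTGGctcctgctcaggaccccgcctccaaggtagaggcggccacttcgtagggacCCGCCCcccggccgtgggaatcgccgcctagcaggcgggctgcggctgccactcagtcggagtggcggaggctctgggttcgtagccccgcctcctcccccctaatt
Efnb1: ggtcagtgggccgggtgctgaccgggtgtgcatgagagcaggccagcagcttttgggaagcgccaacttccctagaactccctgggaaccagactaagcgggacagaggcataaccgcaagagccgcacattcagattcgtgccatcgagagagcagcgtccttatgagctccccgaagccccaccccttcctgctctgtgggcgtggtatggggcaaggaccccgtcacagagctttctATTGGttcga
Both windows hold 1 CCAAT box, read here on the opposite strand, a motif in 34.5% of 27025 promoters of that length. The Epha7 sequence is the first of its 2 entries in the table. Its window also holds 1 GC box, found in 32.9% of promoters. Neither holds an E-box, TATA box or homeodomain core, which 66%, 13% and 4.9% of promoters hold. The CG dinucleotide occurs 25 times upstream of Epha7 and 13 times upstream of Efnb1, against a median of 6 over all promoters.

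Efnb3 encodes ephrin-B3, a transmembrane ligand best known for the spinal midline, where it keeps corticospinal axons that carry EphA4 from recrossing. Its brighter probe set, 103692_at, read 20005 and 19834 in the ventral piece, against 6742 and 7535 in the medial, 7838 and 9119 in the dorsal, 14767 and 13696 in the rostral and 13120 and 15378 in the occipital piece. The hemisphere gave 12807 and 15389. The pieces fell into 3 levels that did not overlap: ventral on top, rostral and occipital in the middle with the hemisphere close to them, and dorsal and medial at the bottom. Rostral and occipital arrays overlapped each other, and medial and dorsal arrays were separated by a gap smaller than the spread of the dorsal pair.

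Ventral Efnb3 averaged 19919 ± 121 (SD, n = 2) against 11024 ± 3562 (SD, n = 8) in the other 4 regions, 1.90-fold higher (log2 0.92 ± 0.14 SE, limma adjusted p = 0.00451). Set against the medial and dorsal pieces alone, with the 4 rostral and occipital arrays left out, the log2 difference was 1.36 (limma adjusted p = 0.00469). The call was lost without ventral replicate 1 (limma adjusted p = 0.0669) or ventral replicate 2 (0.0525), with little change in the difference (0.92 and 0.93). In the medial piece Efnb3 averaged 7138 ± 561 (SD, n = 2) against 14220 ± 4389 (SD, n = 8), 1.91-fold lower (log2 -0.93 ± 0.14 SE, limma adjusted p = 0.0211). Without the arrays labelled rostral or occipital this difference was -0.86 (limma adjusted p = 0.0422). The medial call was lost without medial replicate 1 (limma adjusted p = 0.226) or 2 (0.233), dorsal replicate 2 (0.0595), or ventral replicate 1 (0.0587) or 2 (0.0579).

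The dorsal piece was also low for Efnb3, at 8478 ± 906 (SD, n = 2) against 13885 ± 4896 (SD, n = 8) in the other 4 regions, but this difference did not pass (log2 -0.62 ± 0.14 SE, limma adjusted p = 0.153). The second Efnb3 probe set, 94160_at, read 9566 and 11687 in the ventral, 4893 and 6917 in the medial, 4958 and 7406 in the dorsal, 7182 and 9747 in the rostral and 6933 and 10008 in the occipital piece. Within each replicate number it put the 5 regions in the same order as the first probe set. Replicate 1 read lower than replicate 2 in all 6 groups, most of all in the hemisphere (4022 and 11726), so ventral arrays overlapped with rostral and occipital ones. Its differences were 0.59 ± 0.37 (log2, SE) for the ventral piece (limma adjusted p = 0.402) and -0.49 ± 0.37 for the medial piece (adjusted p = 0.65), and neither passed.

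**Figure D2:**
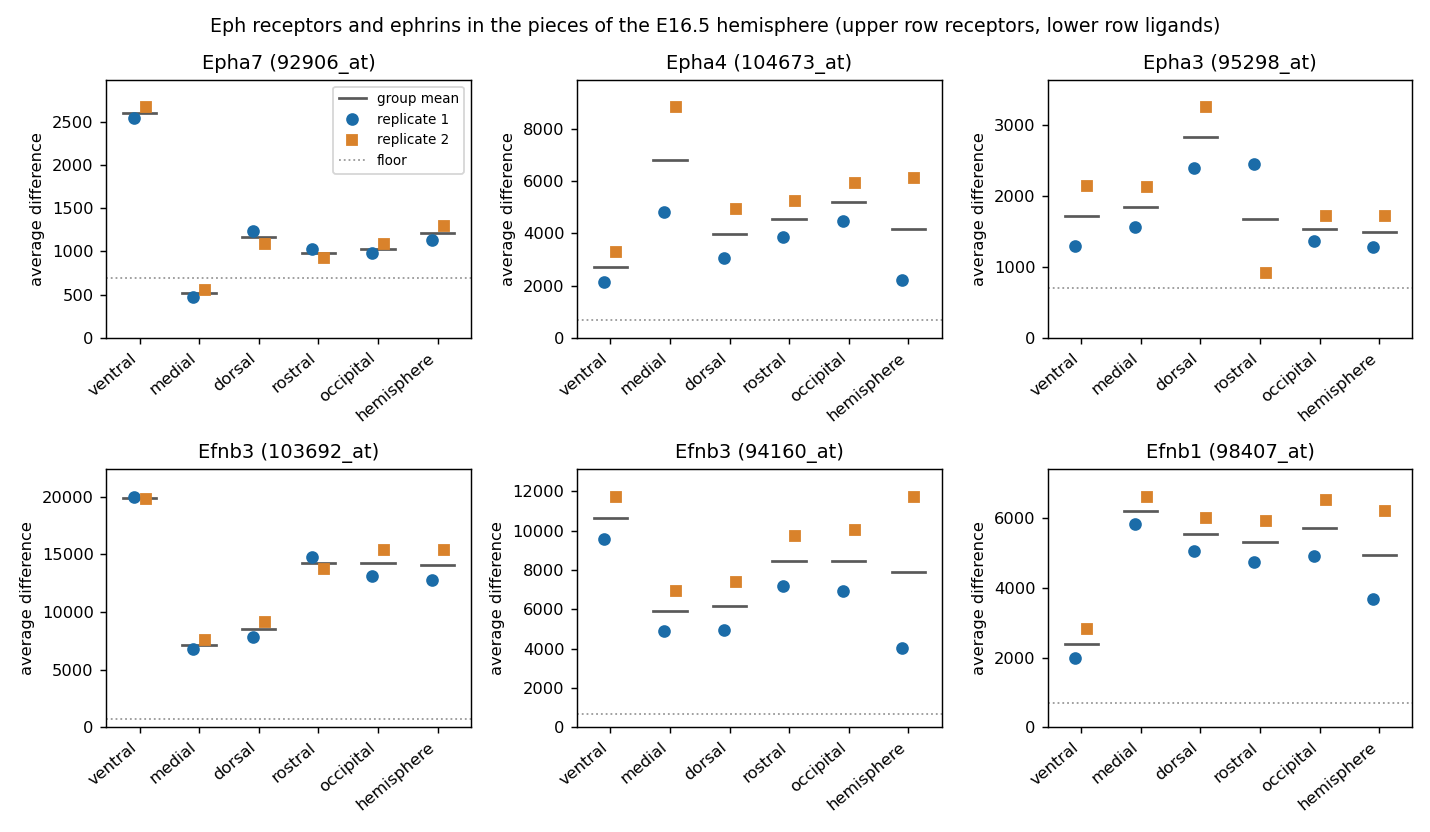
Average difference (y axis, linear, from 0) of 3 receptor probe sets (upper row) and 3 ligand probe sets (lower row) on each array, by group (x axis). Circles are replicate 1, squares replicate 2, bars the group mean and the dotted line the floor of 693.5. Ventral arrays are highest for Epha7 and for Efnb3 (103692_at) and lowest for Efnb1, and replicate 1 lies under replicate 2 in every group for Epha4, Efnb1 and Efnb3 (94160_at).

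Efnb1 encodes ephrin-B1, a transmembrane ligand known for keeping cortical progenitors in the ventricular zone. It read 1977 and 2819 in the ventral piece, against 5830 and 6626 in the medial, 5067 and 6020 in the dorsal, 4747 and 5927 in the rostral and 4917 and 6536 in the occipital piece. Both ventral arrays lay below every other regional array, and the arrays of the other 4 pieces overlapped one another. The hemisphere gave 3682 and 6210, the first of which lies between the ventral and the other pieces.

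The ventral mean of Efnb1 was 2398 ± 596 (SD, n = 2) against 5709 ± 722 (SD, n = 8) in the other 4 regions, 2.40-fold lower (log2 -1.26 ± 0.23 SE, limma adjusted p = 0.0114). The fall was -1.37 in log2 within replicate 1 and -1.15 within replicate 2, and -1.31 with the 4 rostral and occipital arrays left out (limma adjusted p = 0.0276). The call was lost without ventral replicate 1 (log2 -1.01, limma adjusted p = 0.166) and just lost with no filter on low values (adjusted p = 0.0514). Medial Efnb1, with the highest regional mean, differed by 0.48 ± 0.23 (log2, SE) from the other 4 regions and did not pass (limma adjusted p = 0.406). The test over all regions did not pass Efnb1 either (limma adjusted p = 0.0993). Among the alternatives, Efnb1 passed that test only with replicate number as a block, given in the closing section.

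Epha4 encodes the receptor that binds ephrins of both types, ephrin-B3 among them. Its probe set 104673_at read 2127 and 3308 in the ventral piece, against 4815 and 8833 in the medial, 3043 and 4920 in the dorsal, 3870 and 5235 in the rostral and 4490 and 5923 in the occipital piece. The hemisphere gave 2214 and 6113. Replicate 1 was lower than replicate 2 in every group, as it was for 12.7% of all tested probe sets. Within each replicate number the order was the same, with ventral lowest, then dorsal, rostral and occipital, and medial highest, so that all 10 pairs of regions kept their order. That held for 3.34% of all tested probe sets, whose median was 6 of 10 pairs.

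The ventral mean of Epha4 was 2717 ± 835 (SD, n = 2) against 5141 ± 1726 (SD, n = 8), a log2 difference of -0.89 ± 0.40 (SE) that did not pass (limma adjusted p = 0.222). It was -0.91 within replicate 1 and -0.87 within replicate 2. Among the alternatives, this difference passed only in a fit with replicate number as a block, given in the closing section. The labels do not tie a number to a shared dissection. The medial mean was 6824 ± 2841 (SD, n = 2) against 4115 ± 1261 (SD, n = 8), with a difference of 0.73 ± 0.40 (log2, SE; limma adjusted p = 0.486). The second Epha4 probe set, 161866_at, ranged from -486 to 360 and was under the floor on all 12 arrays.

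The remaining receptors showed no difference that passed. Epha3 encodes an EphA receptor for A-type ephrins that is known from axon mapping. It read 2395 and 3242 in the dorsal piece, against 1288 and 2142 in the ventral, 1564 and 2115 in the medial, 2449 and 906 in the rostral and 1355 and 1707 in the occipital piece. The dorsal mean was the highest, 2818 ± 599 (SD, n = 2) against 1691 ± 516 (SD, n = 8), but rostral replicate 1 lay among the dorsal arrays and the difference of 0.78 ± 0.36 (log2, SE) did not pass (limma adjusted p = 0.783). Epha5, another EphA receptor of axon mapping, has 2 tested probe sets. Probe set 161119_at ranged from 1845 to 3433 and 98376_at from 303 to 2092, and on both rostral replicate 1 was the highest of the 12 arrays. The adjusted p over all regions was 0.971 and 1.00 for these probe sets by limma.

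Among the other ligands, Efnb2, which encodes ephrin-B2, a ligand also known from arterial endothelium, had the smallest span of the family, 1.28-fold between its lowest and highest regional mean. It read 16915 and 18284 in the dorsal piece, against 12817 and 14826 in the ventral, 13558 and 14889 in the medial, 15681 and 15054 in the rostral and 16203 and 12847 in the occipital piece. Both dorsal arrays lay above all other regional arrays, yet the difference was 0.28 ± 0.14 (log2, SE) and did not pass (limma adjusted p = 0.856). Efna2, which encodes the A-type ligand ephrin-A2 of retinal axon maps, read 4455 and 3713 in the dorsal piece, against 2953 and 3468 in the ventral, 2240 and 3239 in the medial, 2439 and 3572 in the rostral and 3385 and 3501 in the occipital piece. Its dorsal arrays too were above the other regional arrays, with a difference of 0.41 ± 0.20 (log2, SE; limma adjusted p = 0.856). Efna5, which encodes ephrin-A5, a ligand of thalamocortical maps, ranged from -269 to 137 and was under the floor on all 12 arrays, so nothing can be said of its regional pattern.

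Separation of the arrays without regard to the test was common, which limits what it shows. Both ventral arrays lay outside the range of the other 8 regional arrays for 3 of the 10 tested probe sets (Epha7, Efnb1 and Efnb3 by 103692_at), and for 24.4% of all tested probe sets. The separation of Epha7 was fixed by the filter, which it passed only through its ventral arrays. For the medial piece the count was 2 of 10 (Epha7 and the same Efnb3 probe set) against 10.4%, and for the dorsal piece 2 of 10 (Efna2 and Efnb2) against 4.99%. None of the 10 passed limma's test for the dorsal piece, where 0.274% of all probe sets passed. At an unadjusted p under 0.05 there was 1 of 10, Efnb3, against 386 of all 5832.

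**Figure D3:**
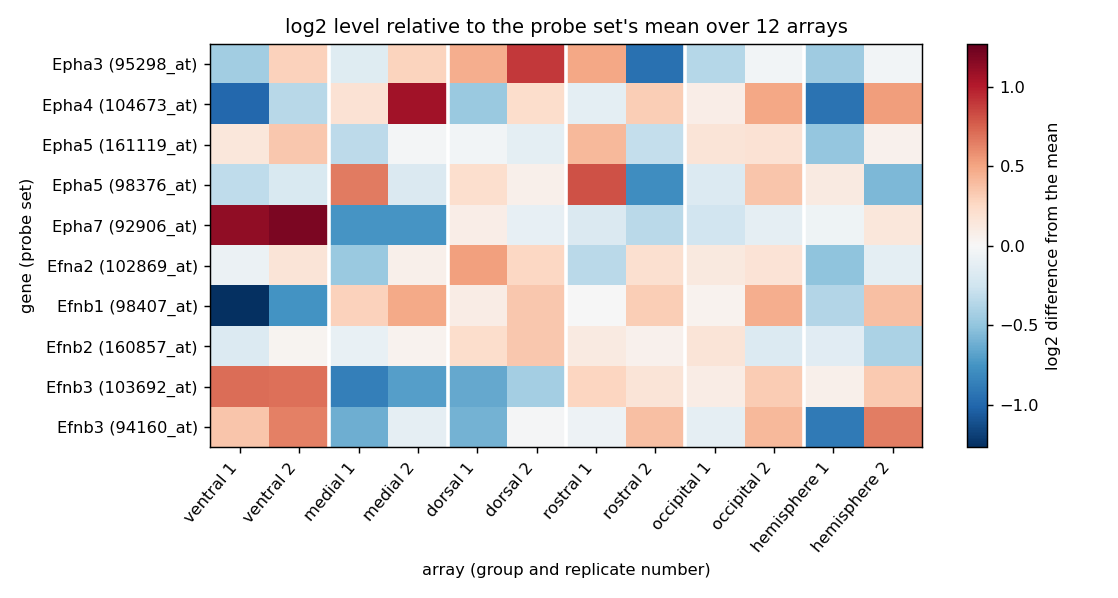
Log2 level of the 10 tested probe sets (rows) on the 12 arrays (columns, by group and replicate), each relative to its own mean over the arrays, red above and blue below. Epha7 and Efnb3 (103692_at) are red on both ventral and blue on both medial arrays, Efnb1 is blue on both ventral arrays, and Epha4, Epha3 and Epha5 vary more between replicates than between most groups.

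Rostral against occipital asks about the rostro-caudal axis along which EphA receptors and A-type ephrins are best known in the cortex. Because the titles of these 4 arrays are in doubt, the comparison holds only for the libraries as labelled. Between those labelled rostral and those labelled occipital 0 of 10 probe sets passed in limma, at an unadjusted p under 0.05 also 0, and 0% of all tested probe sets passed, with 62 at an unadjusted p under 0.05. The log2 differences ran from -0.22 for Efna2 to 0.09 for Efnb2. They went opposite ways in the replicates for 8 of 10 probe sets, as they did for 59.2% of all tested ones. The widest were Epha5 by 98376_at, with 0.98 in replicate 1 and -1.14 in replicate 2, and Epha3, with 0.85 and -0.91. Epha4 (-0.21 and -0.18) and Efnb1 (-0.05 and -0.14) were the 2 that kept their sign, lower in the libraries labelled rostral, by less than the spread between replicates. Summed striatal marker genes crossed over in the same way, at 9061 and 24054 in rostral replicates 1 and 2 against 25994 and 9992 in occipital replicates 1 and 2, and their part in these values was not tested.

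Libraries labelled rostral or occipital, set against the other 4 regions, likewise gave 0 of 10 by limma, with 0% of all tested probe sets passing in either comparison. At an unadjusted p under 0.05 there were 2 of 10 for the rostral piece (Efnb3 higher, Epha7 lower) against 104 of all tested, and 1 of 10 for the occipital piece (Efnb3 higher) against 126.

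**Figure D4:**
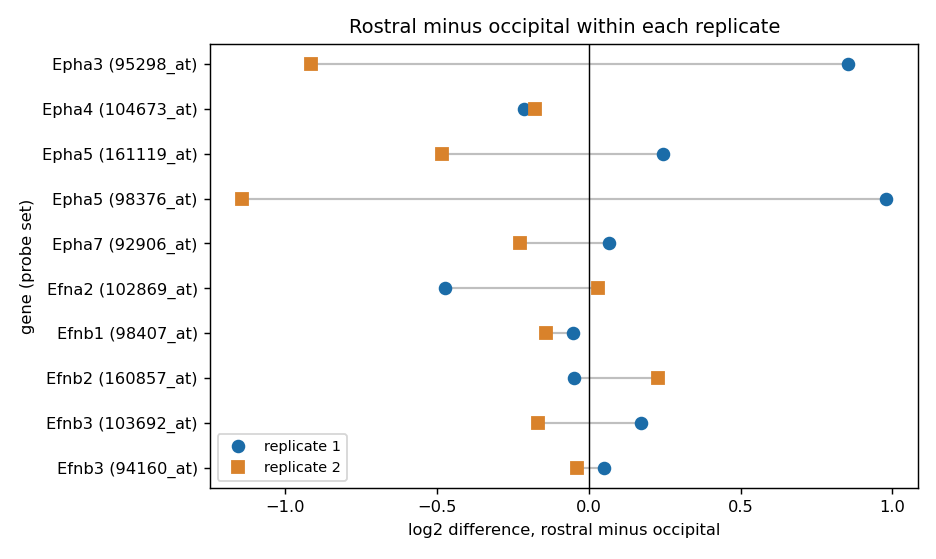
Log2 difference of the rostral minus the occipital array within replicate 1 (circles) and replicate 2 (squares) for the 10 tested probe sets (y axis). The 2 replicates lie on opposite sides of 0 for 8 of 10 probe sets, widest for Epha5 (98376_at) and Epha3, and on the same side for Epha4 and Efnb1.

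The whole hemisphere lay between the lowest and the highest regional mean for 6 of the 10 probe sets, including Epha4, Epha7, Efnb1 and both of Efnb3. It lay under the lowest regional mean for the other 4, namely Epha3, Epha5 by 161119_at, Efna2 and Efnb2. For Efnb2 the hemisphere gave 13117 and 10945, mean 12031 ± 1536 (SD, n = 2), where the lowest regional mean was 13821, that of the ventral piece.

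Other Eph receptors and ephrins, by the probe set that stood for each gene, added no further differences that passed. Of 5 other receptors on the array, 3 (Epha8, Ephb3 and Ephb6) were tested, and of 3 other ephrins 1 (Efna3) was tested. None of these 4 passed in limma in any comparison, their adjusted p over all regions lying between 0.53 and 1.00. Ephb3 read 2184 and 2121 in the rostral, against 725 and 738 in the occipital piece, a log2 difference of 1.56 ± 0.55 (SE) with a limma adjusted p of 1. Efna3 lay between 4271 and 7329 throughout.

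Of 23 tested genes of forward signalling, which act in the cell that carries the receptor, 2 were higher and 1 lower in the ventral piece by limma, a share near the 9.79% of all tested probe sets that passed there. The list's median difference was -0.02, as was that of all 4562 tested genes. Ngef, which encodes ephexin-1, the guanine nucleotide exchange factor that links EphA4 to RhoA, read 11048 and 11928 in the ventral piece, against 28 to 5350 on the other regional arrays, a log2 difference of 2.87 ± 0.46 (SE; limma adjusted p = 0.00661). Tiam1, an exchange factor for Rac, read 3121 and 3031 against 1484 to 2160, a difference of 0.68 ± 0.13 (log2, SE; limma adjusted p = 0.0147). Itsn1, an endocytic scaffold with exchange activity for Cdc42, read 3337 and 4647 against 7271 to 12030, a difference of -1.26 ± 0.23 (log2, SE; limma adjusted p = 0.0107). Ngef alone also passed over all regions (limma adjusted p = 0.0324).

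These 3 calls depended on the ventral pair. Without ventral replicate 1 the limma adjusted p was 0.0767 for Ngef, 0.153 for Tiam1 and 0.156 for Itsn1, and without ventral replicate 2 it was 0.0733 for Ngef and 0.115 for Tiam1. With the 4 rostral and occipital arrays left out all 3 passed, with log2 differences of 3.64, 0.73 and -1.38 (limma adjusted p = 0.00334, 0.0325 and 0.0161). Of 9 tested genes of reverse signalling and shedding, which act in the cell that carries the ephrin, 0 passed in limma in the ventral, medial or dorsal comparison.

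Markers of other cell populations moved with the ventral and medial differences of the family. Of 11 tested genes of GABAergic cells and the ganglionic eminences, 6 were higher in the ventral and 4 lower in the medial piece by limma, where 9.79% and 1.27% of all tested probe sets passed. In the dorsal piece 1 of the 11 was higher and 2 were lower, against 0.274% of all. Their summed level was 123016 to 138595 in ventral arrays and 25615 to 30706 in medial arrays, against 50245 to 84917 in the arrays of the remaining pieces. Npy made up much of the dorsal sum, at 26128 and 27370 against 4480 and 4552 in the medial arrays. The list's median log2 difference was nearly the same in both pieces, -1.33 in the dorsal and -1.35 in the medial. Striatal projection neuron genes, 9 on the array, summed to 42604 to 46577 in ventral arrays against 3819 to 25994 on the other regional arrays, and 4 of 6 tested were higher in the ventral piece. Not every gene of the 2 lists followed these sums. Dlx1 read 9380 and 8457 in the ventral piece, but 15155 in rostral replicate 2 and 16988 in occipital replicate 1. Isl1 read 806 and 954 in the ventral piece, but 1336 and 1350 in those 2 arrays. Efnb3 and Epha7 were thus high in the ventral piece, where the sums were high, and low in the medial piece, where the sums were low. In the other pieces the match was partial. The striatal sum was 9061 and 24054 in rostral replicates 1 and 2, where Efnb3 (103692_at) read 14767 and 13696 and Epha7 1031 and 922. In the dorsal piece the striatal sum was 7461 and 7617. Efnb3 was low there, at 7838 and 9119, but Epha7, at 1237 and 1083, lay above its rostral arrays.

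Lists of dividing and pallial cells ran the other way, as Efnb1 did. Cell cycle genes, 21 on the array, summed to 34763 to 37391 in ventral arrays against 67466 to 102823 on the other regional arrays. Of 19 tested, 14 were lower in the ventral piece by limma, where 9.79% of all tested probe sets passed in either direction. Both medial arrays, at 102796 and 102823, were the highest, and 6 of 19 were higher there, where 1.27% of all passed. Radial glia genes, 14 on the array, summed to 108696 to 108866 in ventral arrays against 107858 to 151347, with 5 of 12 tested lower by limma. Here the match with Efnb1 was partial. The dorsal arrays were as low as the ventral ones, at 107858 and 110718, where Efnb1 read 5067 and 6020. Pallial genes, 9 on the array, summed to 47583 to 66077 in ventral arrays against 120487 to 192031, with 6 of 9 lower. Endothelial genes summed to 14336 to 14974 in ventral arrays, within 12848 to 17423 on the other regional arrays, and Pecam1 and Tek were at the floor on all arrays. Blood genes summed to 73410 to 87679 in ventral arrays against 72142 to 82956, with Ptprc at the floor throughout, and meningeal genes to 12644 to 15859 against 9838 to 18264, with Col3a1, Lum, Ogn, Foxc1 and Pdgfrb at the floor throughout. The part of any of these cell populations in the differences of Epha7, Efnb3 and Efnb1 was not tested.

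**Figure D5:**
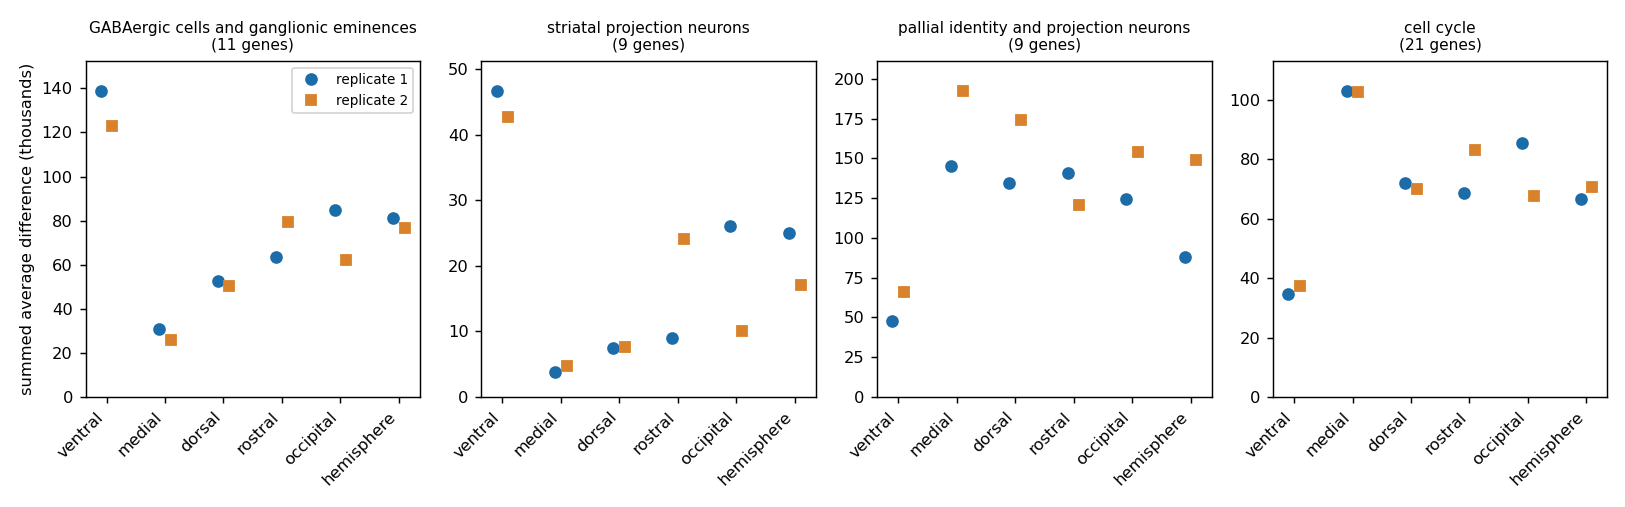
Summed average difference divided by 1000 (y axis, from 0) of 4 marker lists on each array, by group (x axis), circles for replicate 1 and squares for replicate 2. GABAergic and striatal lists are highest on the ventral and lowest on the medial arrays, the pallial and cell cycle lists are lowest on the ventral arrays.

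Genes most like Efnb3 and Epha7 in pattern were found by the root mean square difference of centred log2 values over all 12 arrays, which is 0 for identical patterns. For Efnb3 (103692_at) they were Celf4 (0.08), an RNA-binding protein gene of neurons, Ndn (0.126), which encodes necdin, and Blcap (0.171). Celf4 read 19053 and 19548 in the ventral piece, against 6830 and 6342 in the medial, 7229 and 8306 in the dorsal, 13568 and 12756 in the rostral and 11475 and 14135 in the occipital piece. It therefore showed the same 3 levels as Efnb3, although its probe set's name marks it as one that may also detect related sequences. For Epha7 they were Myo5b (0.22), a myosin motor gene, Gatm (0.247), the enzyme gene of creatine synthesis, and Lpgat1 (0.252). Gatm read 4393 and 4659 in the ventral piece, against 1732 and 1962 in the medial and 2392 to 2958 in the other 3 pieces.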

How the data were processed

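Expression was measured on 12 Affymetrix arrays of embryonic mouse cortex, 2 for each of 6 groups taken from the sample titles. The deposited intensities are average differences per probe set, per the labels, whose account of the analysis breaks off there; software and build are not given in the sources used here. The authors had scaled them, since the 2% trimmed mean was 2501.6 to 2501.9 on each array, and they were not rescaled. Per array, 16.9% to 21.7% of values were negative. All 66 control probe sets were left out. Genes come from the platform annotation: 10833 probe sets have 1 symbol, 396 several and 1193 none.

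The tests used limma 3.58.1 (R 4.3.3): 1 fit of 6 group means on log2 of the floored values, with 6 residual and 2.86 prior degrees of freedom; tests are two-sided. The other 4 regions entered a comparison with equal weight, and n = 8 counts their arrays. Folds come from floored log2 means. The fit was tested on simulated data. The small number of arrays limits precision. P-values rest on the spread between the 2 arrays of a group, pooled over the 6 groups and drawn by limma towards that of all probe sets.

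The members and all gene lists were chosen with earlier results of these data known. Every member probe set is named; other genes of the pathway lists are named where they passed over all regions or for a region against the other 4, Ephb3 and Efna3 having been added after their values were seen; for each member passing over all regions the 3 genes of most similar pattern are named. In lists the probe set with the highest mean stands for a gene. Alternatives are in the closing section.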

Additional observations from a re-analysis of the deposited data

How the results depend on the processing

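Of the differences and tests of single genes under the alternatives, 0 changed direction; those that crossed the threshold are given in the report or, for the replicate number, here. Counts of passing probe sets moved by over 1.5 times in limma as follows. Over all regions the count was 190, and 124 with no filter, 442 with replicate number as a replicate block and 383 with the 4 rostral and occipital arrays left out; with single arrays left out it ran from 11 (without ventral replicate 2) to 234. For the ventral piece it was 571, 938 with the replicate block, and 91 (without ventral replicate 1) to 653. For the medial piece it was 74, 256 with the block, 124 without the hemisphere arrays, 166 with the 4 rostral and occipital arrays left out, and 0 (without medial replicate 2) to 124. For the dorsal piece it was 16, 7 with a lower floor, 7 on the arcsinh scale, 45 with the block, 7 without the hemisphere arrays, 28 with the 4 rostral and occipital arrays left out, and 2 to 16. With no filter 3 passed for the rostral and 4 for the occipital piece, and 0 in every left-out fit. The cause of these shifts was not tested.

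Equal numbers were not taken as pairs, since the labels do not tie a number to a shared dissection. Deviations of replicates correlated between groups at -0.06 (rostral and occipital) to 0.56 (dorsal and ventral), and over 0.1 in 14 of 15 pairs of groups; not every array was closest to one of its own number. With the replicate block, Efnb1 passed over all regions (adjusted p = 0.01) and Epha4 passed for the ventral piece (log2 -0.89, adjusted p = 0.0188); the other calls of single genes were the same. Quantile normalization, the stricter filter (2 floors on at least 6 arrays, which drops Epha7 and Epha5 by 98376_at) and the other floors otherwise kept the counts within 1.5 times. A group left with 1 array was assumed to vary like the others.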
